A study of Homo sapiens with 2 samples.

Results

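Cells break glucose down to pyruvate through the chain of glycolytic enzymes, and lactate dehydrogenase and the monocarboxylate transporters then dispose of the product as lactate. When oxygen is scarce, the prolyl hydroxylases EGLN1 and EGLN3 stop marking the alpha subunits HIF1A and EPAS1 for destruction, and the resulting HIF complexes raise the transcription of most glycolytic genes, of glucose and lactate transporters and of genes for vessel growth, matrix, pH control and mitophagy. Many tumour lines, MDA-MB-231 among them, keep glycolysis high also in air. The part of the expression profile described here is this set of glycolysis and hypoxia response genes. Its members were listed by name, as 38 Ensembl gene IDs with their symbols, by a rule that sets no threshold on their values, although earlier results of these data were known when the list was made. Of the 38 IDs, 36 had a row among the 18394 genes of the table. The other two, PGAM1 and LDHA, are not analysed here. The table carries no symbols, so each name rests on the list of IDs.

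The study set the variant MDA-MB-231(SA), known for bone metastasis in mice, against its parental MDA-MB-231 cells. These are an established human breast cancer line that lacks the oestrogen receptor. Neither culture carried a labelled transgene or treatment, and both grew in a medium with 1000 mg/L glucose and 10% serum, in air to which 5% CO2 was added, so neither was a hypoxic culture by its label. The labels do not state cell density at harvest or the time since the last medium change. Each line was measured once, on 1 Affymetrix array, so no difference has a replicate check, no test was possible, no p-value is given, and overlap between groups cannot be judged. Levels are RMA values, taken to be on the log2 scale. A difference is the SA variant's level minus the parental level, and a fold is 2 to the power of its size. Genes entered the comparison if their level was at or above the median of all values, 5.62, on at least 1 array, which held for 9725 genes and for 34 of the 36 members. Marker genes of the breast lineage were not analysed here, because no table used here pairs their names with the rows.

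More members were lower than higher in the SA variant. Of the 34 compared, 26 were lower and 8 higher, with a median difference of -0.26, while over all 9725 genes compared 46.2% were lower and the median difference was 0.045. Over all 36 members, those below the floor included, 27 were lower and 9 higher. At least 2-fold lower were 7 members, against a background of 4.17% of the genes compared: SLC16A3, SLC2A1, P4HA2, NDRG1, BNIP3, BNIP3L and ENO2. At least 2-fold higher was 1 member, HK2, against a background of 5.75%. All 7 lower members reached the floor on both arrays, whereas HK2 reached it only on the SA array, where it was higher. Among the 30 members above the floor on both arrays, 7 were at least 2-fold lower and 0 at least 2-fold higher, where 3.26% and 4.13% of all 8669 such genes were. At the 1.5-fold size 10 of the 34 members compared were lower, against a background of 11.8%, and 2 were higher, against 15.8%.

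The regulatory sequence that HIF complexes recognise has the core ACGTG or GCGTG. Promoters are shown here for 5 members at least 2-fold apart, those with an entry in RefSeq's promoter windows and at least 1 core in it, and for PGK1 and CA9, which are textbook HIF targets with smaller differences in these data. Each window runs from 250 bases before to 50 after an annotated start, on the gene's strand, 5′ to 3′, in GRCh38.p14. Capitals mark ACGTG or GCGTG on either strand, so that CACGT and CACGC in capitals are matches on the opposite strand. Where a gene had several windows, the one with the most ACGTG matches was taken.
SLC16A3, chr17:82228792-82229091, + strand: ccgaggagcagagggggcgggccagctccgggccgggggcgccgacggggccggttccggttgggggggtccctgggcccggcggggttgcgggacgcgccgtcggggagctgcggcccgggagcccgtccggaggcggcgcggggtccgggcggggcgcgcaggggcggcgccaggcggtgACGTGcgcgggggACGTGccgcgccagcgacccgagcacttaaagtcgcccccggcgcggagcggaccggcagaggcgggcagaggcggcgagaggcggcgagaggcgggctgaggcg
SLC2A1, chr1:42958819-42959118, - strand: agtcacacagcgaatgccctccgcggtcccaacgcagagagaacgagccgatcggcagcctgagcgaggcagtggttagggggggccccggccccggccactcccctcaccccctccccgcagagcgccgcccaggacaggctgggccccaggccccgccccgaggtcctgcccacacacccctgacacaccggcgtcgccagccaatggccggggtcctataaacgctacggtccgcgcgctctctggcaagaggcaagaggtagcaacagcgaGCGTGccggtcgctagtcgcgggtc
BNIP3, chr10:131981874-131982173, - strand: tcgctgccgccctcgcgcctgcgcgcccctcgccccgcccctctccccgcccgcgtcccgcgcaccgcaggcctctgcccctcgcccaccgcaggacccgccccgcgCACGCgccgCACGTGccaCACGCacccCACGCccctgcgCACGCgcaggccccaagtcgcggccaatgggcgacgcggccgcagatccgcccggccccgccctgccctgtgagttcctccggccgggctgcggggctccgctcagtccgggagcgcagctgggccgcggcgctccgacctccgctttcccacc
ENO2, chr12:6914330-6914629, + strand: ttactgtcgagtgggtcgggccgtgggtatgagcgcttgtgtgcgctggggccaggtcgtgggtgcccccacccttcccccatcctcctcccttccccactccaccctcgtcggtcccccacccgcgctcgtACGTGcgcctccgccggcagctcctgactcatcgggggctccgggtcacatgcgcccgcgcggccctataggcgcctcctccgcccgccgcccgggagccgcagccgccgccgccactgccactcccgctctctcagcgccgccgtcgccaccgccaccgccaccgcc
HK2, chr2:74834920-74835219, + strand: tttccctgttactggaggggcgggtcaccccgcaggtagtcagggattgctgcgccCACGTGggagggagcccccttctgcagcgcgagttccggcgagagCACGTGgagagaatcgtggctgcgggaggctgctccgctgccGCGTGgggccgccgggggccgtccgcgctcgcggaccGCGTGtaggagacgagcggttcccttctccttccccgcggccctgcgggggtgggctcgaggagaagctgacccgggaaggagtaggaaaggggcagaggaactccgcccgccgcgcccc
PGK1, chrX:78103998-78104297, + strand: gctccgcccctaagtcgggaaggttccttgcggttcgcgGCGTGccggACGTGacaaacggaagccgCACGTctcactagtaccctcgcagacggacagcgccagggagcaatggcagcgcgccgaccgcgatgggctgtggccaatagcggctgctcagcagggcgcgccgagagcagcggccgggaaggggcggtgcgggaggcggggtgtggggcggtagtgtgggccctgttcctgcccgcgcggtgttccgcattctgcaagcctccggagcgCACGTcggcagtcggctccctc
CA9, chr9:35673678-35673977, + strand: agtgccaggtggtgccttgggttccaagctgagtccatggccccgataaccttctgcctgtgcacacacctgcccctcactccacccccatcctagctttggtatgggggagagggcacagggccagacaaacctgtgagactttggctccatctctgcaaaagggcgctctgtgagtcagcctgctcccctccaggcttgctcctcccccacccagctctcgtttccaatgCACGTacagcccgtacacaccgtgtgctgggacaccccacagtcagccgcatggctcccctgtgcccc

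The windows differ in how many cores they hold. The SLC16A3 window has 2 ACGTG matches, which begin 68 and 55 bases before the start, and it is 1 of 5 windows of that gene. In SLC2A1 the single match is a GCGTG that begins at base 26 after the start. BNIP3 holds 2 ACGTG and 4 GCGTG matches within a stretch that begins 143 bases before the start; both ACGTG matches are the same palindrome CACGTG read on either strand. One ACGTG lies in ENO2, beginning 118 bases before the start. The second HK2 window has 4 ACGTG matches, which are 2 such palindromes, and 2 GCGTG matches. PGK1 has 3 ACGTG and 1 GCGTG matches, and CA9 has a single ACGTG match that begins 18 bases before the start. P4HA2, at least 2-fold lower, has no match in its 1 window. A match describes these letters alone, and the palindrome CACGTG is also the core read by other factors, MYC among them.

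Windows were found for 31 members, 57 in all, some of which overlap; SLC2A3, SLC16A1, VEGFA, NDRG1 and BNIP3L had none in the table used here. Either core occurred in 38 of the 57 windows (66.7%), against 48.4% of all 35116 windows of the same length. ACGTG alone was in 40.4% of the members' windows and in 21.4% of all windows, and GCGTG in 36.8% and 36.5%. The members' windows also had a higher G+C content, with a median of 68.7% against 58.7% over all windows, and its part in the match counts was not tested. Among members compared and at least 1.5-fold lower, 9 of 13 windows held a core (69.2%). Among the other members 29 of 44 did (65.9%). The others include EGLN3, which was 1.76-fold lower but below the floor on both arrays, and whose window holds no core. The order of these window shares depends on that placement. Genes with several windows weigh more in these shares. Counted per gene the order was the opposite, with a core in 7 of 8 lower members (87.5%) and 22 of 23 others (95.7%). For ACGTG alone the lower members had the smaller share by either count. These shares were 30.8% against 43.2% of windows and 50% against 65.2% of genes.

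Among the members, the transporters at both ends of the pathway had the largest differences. SLC16A3 (ENSG00000141526_at), the monocarboxylate transporter MCT4 that exports lactate from glycolytic cells, had a level of 7.72 in the SA variant and 9.64 in the parental line. Its difference of -1.92 (3.80-fold lower) took rank 69 from the lowest among the 9725 genes compared. SLC2A1 (ENSG00000117394_at), the glucose transporter GLUT1, had a level of 7.03 in the SA variant, against 8.66 in the parental line. This is a difference of -1.63 (3.10-fold lower), at rank 109 from the lowest. Its family member SLC2A3, the high-affinity glucose transporter GLUT3, was at 6.79 in the SA variant and 6.60 in the parental line, a difference of 0.19. SLC16A1, the monocarboxylate transporter MCT1, was at 4.46 in the SA variant and 4.01 in the parental line, below the floor on both arrays, where RMA values hold mostly background, so its difference cannot be set against that of SLC16A3.

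**Figure D1:**
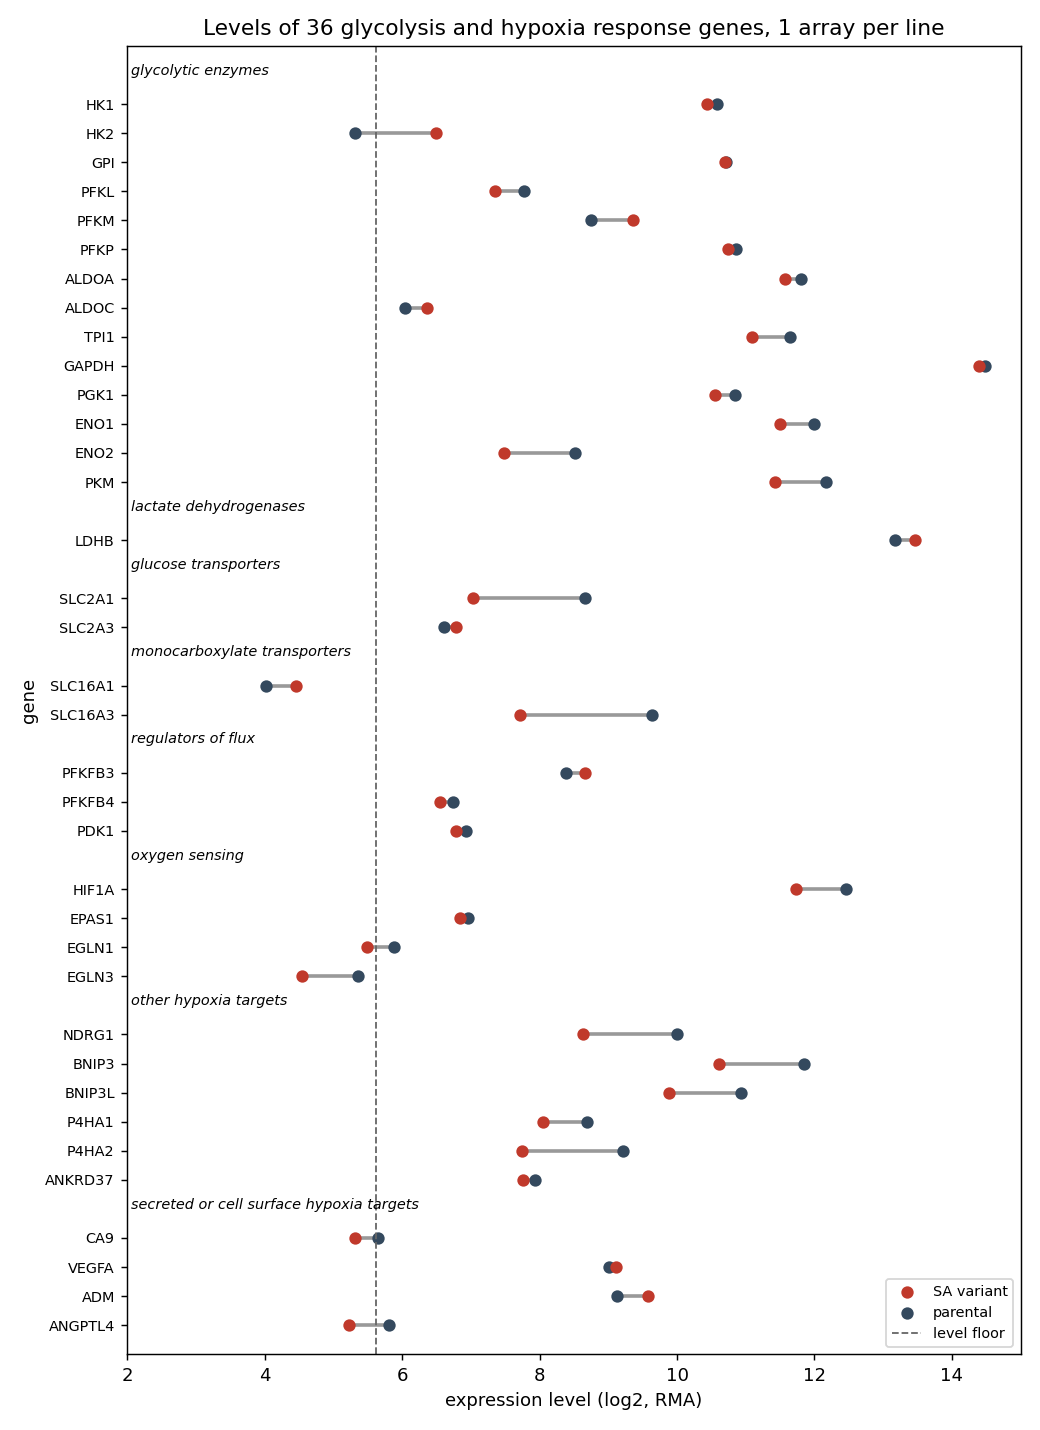
Expression levels (log2, RMA; horizontal axis) of the 36 members in the SA variant (red) and the parental line (dark blue), grouped by role, 1 array each; the dashed line is the level floor of 5.62. The widest gaps, with the SA variant to the left, are those of SLC16A3, SLC2A1, P4HA2 and NDRG1, while HK2 has the SA variant to the right.

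Of the 14 measured glycolytic enzymes, 11 were lower in the SA variant (78.6%, where 46.2% of all genes compared were), with a median difference of -0.19. ENO2 alone was 2-fold lower and HK2 alone 2-fold higher, 7.14% of the enzymes in each direction, which is close to the 4.17% lower and 5.75% higher of all genes compared. The first step, the phosphorylation of glucose, is run by hexokinases. HK2 (ENSG00000159399_at), the inducible hexokinase of tumours and muscle, had a level of 6.49 in the SA variant and 5.31 in the parental line. Its difference of 1.18 (2.27-fold higher) took rank 371 from the highest of the genes compared. The parental level lies below the floor, so HK2 entered the comparison through the SA array alone, where it was higher. This fold may be understated by background or overstated by that selection, and neither was tested. HK1, the hexokinase of most tissues, was at 10.4 in the SA variant and 10.6 in the parental line, a difference of -0.15.

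The middle of the pathway showed small and mixed differences. GPI, which converts glucose-6-phosphate to fructose-6-phosphate, was at 10.70 in the SA variant and 10.72 in the parental line. Phosphofructokinase, the committing step, is a tetramer of 3 kinds of subunit, and these differed among themselves. The muscle type PFKM was at 9.35 in the SA variant and 8.75 in the parental line, a difference of 0.60 (1.52-fold higher). The liver type PFKL was at 7.36 in the SA variant and 7.77 in the parental line, a difference of -0.41. The platelet type PFKP was at 10.7 in the SA variant and 10.9 in the parental line, a difference of -0.11. At 1.5-fold or more, HK2 and PFKM were the only members higher, 2 of the 34 compared, where 15.8% of all genes compared were. Aldolase, which splits the hexose, had ALDOA at 11.6 in the SA variant and 11.8 in the parental line (difference -0.23), and the brain type ALDOC at 6.37 in the SA variant and 6.04 in the parental line (difference 0.33).

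From triose phosphate to pyruvate all 6 measured enzymes were lower in the SA variant, where 46.2% of all genes compared were. GAPDH was the exception after quantile normalization, with a difference of 0. The median difference of the 6 was -0.52, against 0.045 over all genes compared. They are a part of the 14 glycolytic enzymes, marked off as a stretch of the pathway and not listed as a role group of their own. The higher enzymes, HK2, PFKM and ALDOC, lie outside this stretch, so its count of lower members depends on where it begins. TPI1, which interconverts the triose phosphates, was at 11.1 in the SA variant and 11.6 in the parental line, a difference of -0.55 (1.47-fold lower). GAPDH, the oxidation step, was at 14.40 in the SA variant and 14.48 in the parental line, a difference of -0.078. These were the highest values on either array, where probes can saturate; whether they did was not tested. PGK1, the first step that yields ATP, was at 10.5 in the SA variant and 10.8 in the parental line, a difference of -0.29. Both enolases were lower. ENO1, the common form, was at 11.5 in the SA variant and 12.0 in the parental line, a difference of -0.50. ENO2 (ENSG00000111674_at), the neuronal form, was at 7.49 in the SA variant and 8.51 in the parental line, a difference of -1.03 (2.04-fold lower), just past the 2-fold size. PKM, the pyruvate kinase of the last step, was at 11.4 in the SA variant and 12.2 in the parental line, a difference of -0.74 (1.67-fold lower). Several of these genes have processed pseudogenes, and the probes' specificity was not examined, since nothing in the labels states how probes were assigned to genes.

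LDHB, the lactate dehydrogenase subunit favouring the use of lactate, was at 13.5 in the SA variant and 13.2 in the parental line, a difference of 0.30 (1.23-fold higher). The members grouped as regulators of flux, PFKFB3, PFKFB4 and PDK1, differed little, and flux itself was not measured. PFKFB3, which makes the phosphofructokinase activator fructose-2,6-bisphosphate, was at 8.66 in the SA variant and 8.39 in the parental line, a difference of 0.27. Its paralogue PFKFB4 was at 6.54 in the SA variant and 6.73 in the parental line, a difference of -0.19. PDK1, the kinase that keeps pyruvate out of mitochondria by blocking pyruvate dehydrogenase, was at 6.78 in the SA variant and 6.93 in the parental line, a difference of -0.15. All 3 lay within 1.5-fold.

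Hypoxia targets outside glycolysis differed among themselves. Of these 10 members, 8 were lower in the SA variant, where 46.2% of all genes compared were. The median difference of the 10 was -0.61, against 0.045 over all genes compared. The lower members CA9 and ANGPTL4 reached the floor on the parental array alone. At least 2-fold lower were 4, against 4.17% of all genes compared. At least 1.5-fold lower were 5, against 11.8%, and 0 were higher by 1.5-fold, against 15.8%, a share that would be fewer than 2 of 10 members. P4HA2 (ENSG00000072682_at), a catalytic subunit of the collagen prolyl hydroxylase, was at 7.74 in the SA variant and 9.21 in the parental line. Its difference was -1.47 (2.77-fold lower), at rank 148 from the lowest. P4HA1, the other such subunit, was at 8.04 in the SA variant and 8.69 in the parental line, a difference of -0.65 (1.57-fold lower). NDRG1 (ENSG00000104419_at), a stress-responsive gene known as a metastasis suppressor in some tumours, was at 8.63 in the SA variant and 10.0 in the parental line. It differed by -1.37 (2.58-fold lower), at rank 172.

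BNIP3 and BNIP3L encode related receptors on the outer mitochondrial membrane that mark mitochondria for mitophagy, and both were lower. BNIP3 (ENSG00000176171_at) was at 10.6 in the SA variant and 11.9 in the parental line, a difference of -1.24 (2.36-fold lower) at rank 226 from the lowest. BNIP3L (ENSG00000104765_at) was at 9.88 in the SA variant and 10.9 in the parental line, a difference of -1.05 (2.08-fold lower) at rank 350. The difference of BNIP3 minus that of BNIP3L was -0.19. ANKRD37, a small ankyrin repeat protein and HIF target, was at 7.76 in the SA variant and 7.94 in the parental line, a difference of -0.17.

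The 4 secreted or cell surface targets lay on both sides of 0, and none reached the 1.5-fold size, ANGPTL4 only just falling short of it. VEGFA, the main angiogenic factor, was at 9.11 in the SA variant and 9.01 in the parental line, a difference of 0.097. ADM, the vasodilator adrenomedullin, was at 9.58 in the SA variant and 9.13 in the parental line, a difference of 0.45 (1.37-fold higher). Of all genes compared, 54.1% lay at or below the difference of VEGFA and 78.3% at or below that of ADM. ANGPTL4, a secreted inhibitor of lipoprotein lipase, was at 5.23 in the SA variant and 5.80 in the parental line, a difference of -0.57 (1.49-fold lower). CA9, the carbonic anhydrase that is a standard marker of hypoxic tumour cells, was at 5.31 in the SA variant and 5.64 in the parental line, a difference of -0.33. ANGPTL4 and CA9 reached the floor on the parental array alone, where they were higher, and both stayed close to the floor in either line.

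**Figure D2:**
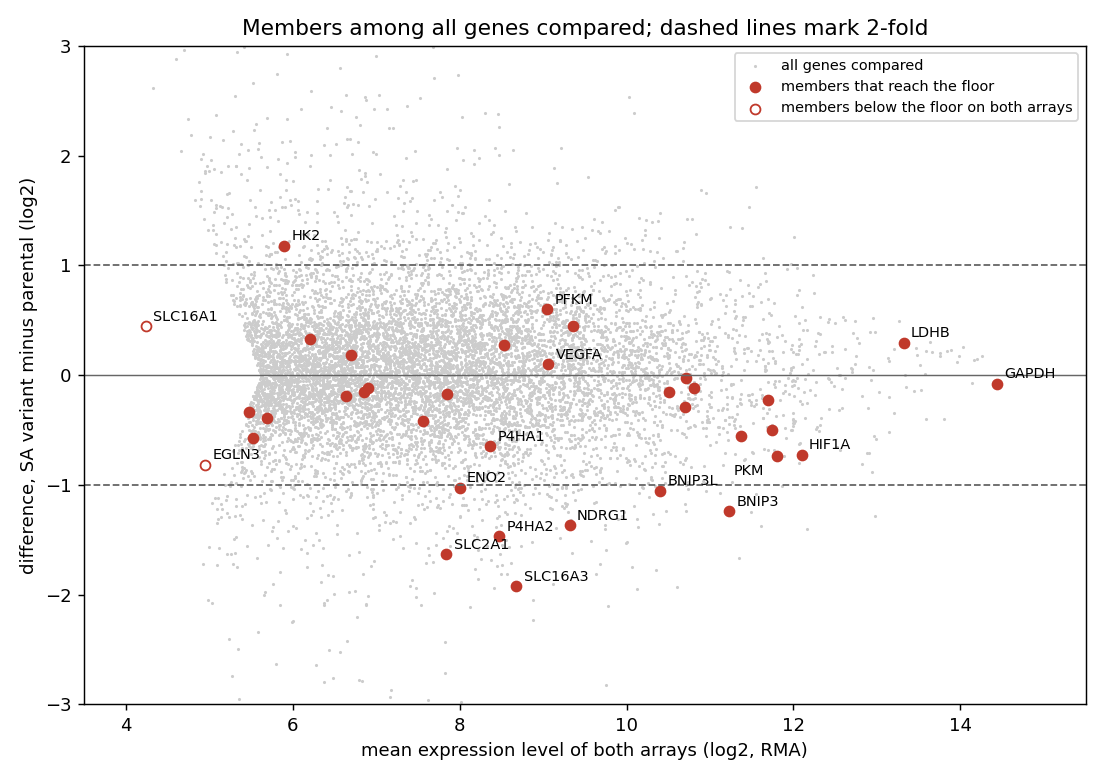
Difference, SA variant minus parental (log2; vertical axis), against the mean level of both arrays (log2; horizontal axis) for the 36 members (red; open where below the floor on both arrays) and all 9725 genes compared (grey; 51 genes beyond a difference of 3 lie outside the plot). The dashed lines mark 2-fold: 7 members lie below the lower line and HK2 lies above the upper one.

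All 4 listed members of the oxygen-sensing system were lower in the SA variant, none of them by 2-fold. Only 3 of the 4 were among the genes compared, of which 46.2% were lower, and EGLN3 was not. Other genes of this system were not analysed here. Only HIF1A and EPAS1 reached the floor on both arrays. HIF1A (ENSG00000100644_at), the broadly expressed alpha subunit, was at 11.7 in the SA variant and 12.5 in the parental line, a difference of -0.73 (1.66-fold lower) at rank 788 from the lowest. EPAS1, the alpha subunit HIF-2, was at 6.84 in the SA variant and 6.96 in the parental line, a difference of -0.12. Alpha subunits are controlled mainly by protein stability, which these arrays do not measure. EGLN1, the main hydroxylase in well oxygenated cells, was at 5.49 in the SA variant and 5.88 in the parental line, a difference of -0.39. It reached the floor on the parental array alone, where it was higher. EGLN3, a hydroxylase that is itself a HIF target, was at 4.54 in the SA variant and 5.36 in the parental line, below the floor on both arrays, a difference of -0.82 (1.76-fold lower).

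Differences were also set against each other within families. No such contrast is drawn for SLC16A3, because SLC16A1 lay in the background range. The difference of SLC2A1 minus that of SLC2A3 was -1.82, so the ratio of GLUT1 to GLUT3 signal was 3.52-fold lower in the SA variant. In the hexokinases the ratio of HK2 to HK1 was 2.52-fold higher, and among phosphofructokinases that of PFKM to PFKL was 2.02-fold higher. The parental level of HK2 lay below the floor, which limits the hexokinase ratio. On the log2 scale the difference of P4HA2 minus that of P4HA1 was -0.82, and that of HIF1A minus that of EPAS1 was -0.61. For ENO2 minus ENO1 it was -0.53, with both enolases lower in the SA variant.

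**Figure D3:**
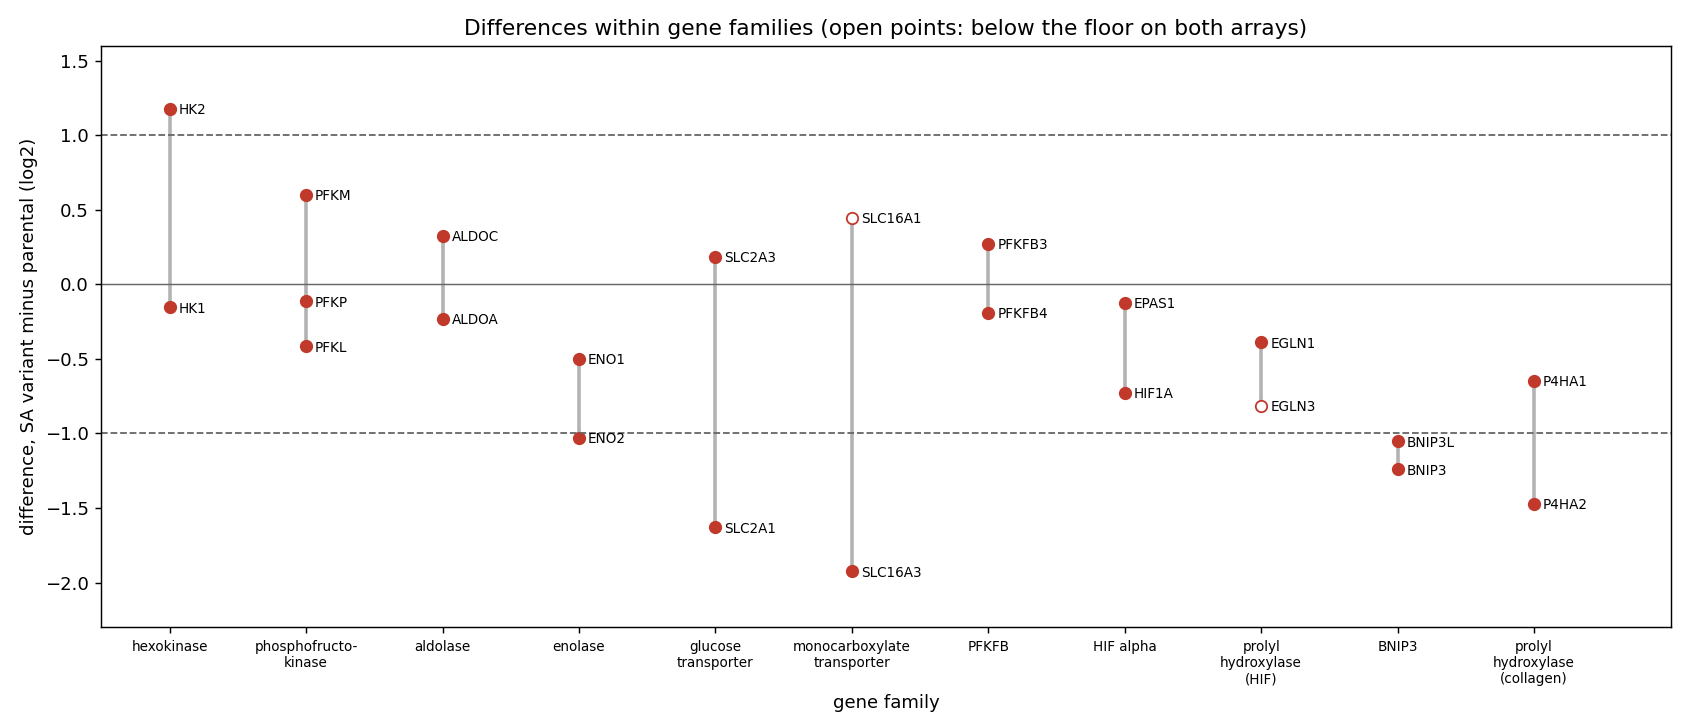
Difference, SA variant minus parental (log2; vertical axis), for each member of 11 gene families (horizontal axis); grey bars join members of a family, dashed lines mark 2-fold and open points lay below the floor on both arrays. Among families with every member above the floor on at least 1 array, the widest spans are those of the glucose transporters and the hexokinases, whereas both BNIP3 genes lie together below the 2-fold line. HK2 reached the floor on the SA array alone.

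Against the spread of all genes compared, whose central 95% ran from -1.20 to 1.42, the differences of 5 members lay below the lower end and those of 0 members above the upper. The 5 were SLC16A3, SLC2A1, P4HA2, NDRG1 and BNIP3. The spread mixes real differences with noise, so it is no measure of error.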

How the data were processed

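Total RNA from 1 culture of the SA variant and 1 of the parental line was measured on 1 Affymetrix array each, from 3 µg labelled as cRNA per the labels' protocols. The log2 values deposited by the authors were made with RMA, per the submitters' processing notes; RMA corrects background, equalises the arrays' distributions and summarises probes, and it shrinks differences of dim genes towards 0. The sources used here give neither the log base nor the array model, probe set definition or software version; base 2 was taken from the range of the values. Each row is 1 Ensembl gene ID, and 0 of them matched the gene table by Ensembl ID, so the further pathway genes and line markers that had been listed by symbol are not analysed here.

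Differences, the floor (median of all values) and the 2-fold size rule were computed over the whole table with Python 3.11.15 and pandas 2.3.3. The rules were also run on simulated data with little noise and planted differences above the 2-fold size. That run checked the code alone and could not judge the calls of members close to that size. Every member is named. The members and lists were chosen with earlier results of these data known. As alternatives, the floor was moved to the 25th or 75th percentile, dropped, or required on both arrays; others were centring, a lowess trend (span 0.4, statsmodels 0.14.6), quantile normalization, and rules of 1.5-fold and 3-fold. The number of arrays limits the precision. Promoter windows were matched by symbol in RefSeq, GRCh38.p14.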

Additional observations from a re-analysis of the deposited data

How the results depend on the processing

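No paired analysis was possible because each line had a single array, and no result could be repeated without an array. The same 7 members stayed at least 2-fold lower under the other floors and under centring, trend subtraction and quantile normalization, and with the 1.5-fold rule 10 members were lower. A floor decides only which genes are compared and leaves each difference as it is. All 7 lay above every floor on the parental array and above 5.62 on both arrays, so no floor could remove them. Centring subtracted 0.045 from every difference, which moves lower genes further down. With the 3-fold rule 2 members were lower (SLC16A3 and SLC2A1) and 0 higher, where 1.19% and 1.92% of all genes compared were, and with the 1.5-fold rule 2 were higher (HK2 and PFKM). HK2 was not compared with the floor at the 75th percentile or on both arrays, which left 0 higher members. Raising the floor to the 75th percentile left 25 members, whose median difference was -0.41; that floor takes out dim members, and other causes were not tested. In 0 of the 36 members did the difference change sign under the floors and scalings run, though GAPDH, first in rank on both arrays, was at exactly 0 after quantile normalization by construction. ENO2 and BNIP3L lay closest to the 2-fold size, with differences from -1.08 to -1.03 and from -1.10 to -1.05. Dim signal limits HK2, CA9, ANGPTL4, EGLN1, EGLN3 and SLC16A1.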
